A study of Mus musculus with 8 samples.

Results

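The genes described here encode the proteins of the cytosolic ribosome. They were taken as every array probe whose annotated symbol is Rpl or Rps followed by a number, with or without a letter, together with Rplp0, Rplp1, Rplp2 and Rpsa. Rps6k kinases, Rpl10l and symbols ending in -ps were left out. The rule found 59 of the 19057 genes named on the array, read by 88 of its 45281 probes. Of these, 77 probes from 55 genes (87.5%) had a detection p under 0.05 on at least 2 of the 8 arrays and were tested, against 45.8% of all probes.

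The cells were mouse embryonic stem cells of the E14 line, which stem from the early embryo and stay undifferentiated while leukaemia inhibitory factor (LIF) is in the medium. Every culture, control included, was grown with 15% serum and 1500 U/ml LIF, received a short hairpin RNA (shRNA) by transfection and was held under puromycin for 3 days. The control hairpin targets GFP (shGFP) and 3 different hairpins target Dnmt3l (shDnmt3L1, shDnmt3L2 and shDnmt3L3), with 2 Illumina BeadChip arrays in each group. Dnmt3l encodes a catalytically inactive partner of the DNA methyltransferases, and the series title places the study in the control of DNA methylation by Dnmt3L on the way from stem cells to germ cells. In RNA from whole cultures, a smaller share of cells with a transcript and less of it per cell cannot be told apart.

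The ribosome is built from a small subunit, which decodes the mRNA and carries the Rps proteins, and a large subunit, which forms the peptide bond and carries the Rpl proteins. Growing cells make these proteins in matched amounts, and their mRNAs share a run of pyrimidines at the start through which growth signals control their translation. Several of them act outside the ribosome, among them proteins that bind MDM2 when ribosome assembly is disturbed.

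Per array, 40.0% to 42.5% of probes were detected. Correlations across the tested probes ran from 0.995 to 0.996 within a group, from 0.979 to 0.992 between hairpins and from 0.970 to 0.982 between the control and a hairpin. Dnmt3l has 2 tested probes, and the first read 11.87 and 11.97 (normalized log2 intensity) on the shGFP arrays, 10.51 and 10.45 under shDnmt3L1, 10.73 and 10.84 under shDnmt3L2 and 9.34 and 9.19 under shDnmt3L3. All hairpin arrays were below both shGFP arrays, and its log2 changes were -1.44, -1.14 and -2.66 with the 3 hairpins in that order (limma, adjusted p = 4.55e-06 over their mean). The other probe gave -1.39, -1.26 and -2.85. All 10 embryonic stem cell marker genes were detected on all 8 arrays. Of 10 fibroblast or feeder markers, 6 were detected on no array, Col1a1 and Col3a1 among them, as were Cdx2, Elf5 and Hand1 of 5 trophectoderm markers and Gata4, Gata6, Sox17 and Foxa2 of 5 endoderm markers. Of the fibroblast list only Thy1 and Twist1 were detected on all 8 arrays. Over the mean of the hairpins 1 of its 4 tested probes passed, higher, and their median log2 change was 0.06. The summed signal of the fibroblast list was 9.35 to 9.40 (log2) with shGFP, 9.78 to 9.79 with shDnmt3L1, 9.43 to 9.48 with shDnmt3L2 and 9.85 to 9.87 with shDnmt3L3. For the trophectoderm list, in which Krt8 and Krt18 were detected, it was 8.53 to 8.59, 8.93 to 9.01, 8.48 to 8.56 and 8.81 to 8.84 in the same order. What these markers contribute to the values below was not tested.

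Compared with shGFP, most cytosolic ribosomal protein probes were close to their control level in the cells with a Dnmt3l hairpin. Over the mean of the 3 hairpins, 20 of the 77 probes passed the test (26.0%), 14 higher and 6 lower, where 46% of all 20754 probes passed, 22.7% higher and 23.3% lower. The median log2 change of the members was 0.035, against -0.010 over all probes, and their median absolute change was 0.096 against 0.224. Changes of more than 1.5-fold were found for 3 member probes, those of Rpl22, Rpl3l and Rps19, and for 10.7% of all probes. For 66 of the 77 probes the 95% interval of the change lay within 1.5-fold in both directions, a count made for the members only. Most members had a mean log2 intensity of 13 or more, where 0.446% of all probes changed by more than 1.5-fold.

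By gene, 13 had a probe that rose, 4 had a probe that fell, 1 of these (Rps24) had both, and 39 of the 55 had none. These counts by gene were made for the members only, so no share over all genes stands beside them. Large subunit genes gave 46 tested probes, of which 8 rose and 3 fell, with a median change of 0.005. Small subunit genes gave 27 probes, of which 4 rose and 2 fell, with a median change of 0.047. The remaining 4 probes belong to Rpl3l, Rpl39l, Rps27l and Rps4l, relatives of ribosomal proteins that the naming rule takes in, and 2 of them rose and 1 fell. Without these 4, 12 probes rose and 5 fell.

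All 6 hairpin arrays lay above both shGFP arrays for 15 member probes and below both for 10, and the groups overlapped for the other 52. Over all probes tested, 18.7% lay wholly above and 19.5% wholly below. The arrays of a group differed by a median of 0.071 to 0.078 across the member probes. In a fit of all hairpin arrays against shGFP with the group as a random block, arrays of a group were treated as correlated. The correlation of 0.624 was shared by all probes. In that fit 1 member probe passed, that of Rpl22 (limma, adjusted p = 0.0378), and 687 of all probes did.

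**Figure D1:**
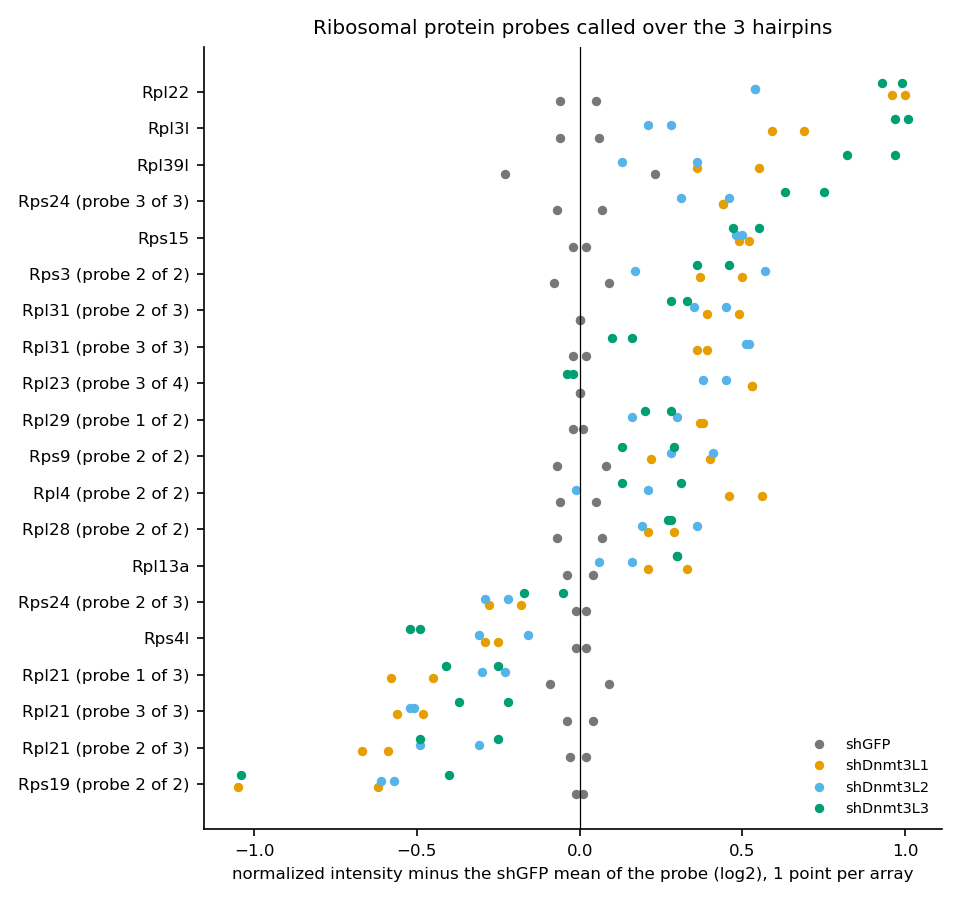
Normalized log2 intensity of each array minus the shGFP mean of the same probe (x axis), for the 20 cytosolic ribosomal protein probes called over the mean of the 3 hairpins (y axis, probes of a gene numbered from the brightest). Each point is 1 of the 8 arrays, and for Rps15 the 6 hairpin arrays lie close together, while for Rpl23 the shDnmt3L3 arrays lie with shGFP.

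The number of ribosomal protein probes that passed depended on where they sit in the signal range. Of the 77 probes, 43 (55.8%), from 37 genes, had a mean log2 intensity of 13 or more, and 24 to 29 of the 100 brightest probes on each array were theirs. Only 2 of these 43 passed (4.65%), 1 probe each of Rps3 and Rps9, and 13.8% of all 224 probes in that range did. Among the 181 probes in that range from other genes, 29 passed (16%). The log2 differences of the 43 probes ran from -0.14 to 0.40, those of the uncalled ones up to 0.19, and for 42 of the 43 the 95% interval lay within 1.5-fold. Small changes were common to the range. The median absolute change was 0.06 for the members and 0.086 for all 224 probes, of which 0.446% changed by more than 1.5-fold.

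Between 10 and 13 on the log2 scale, 8 of 16 member probes passed (50%), 7 of them higher, against 52.6% of all probes. From 7 to 10, 2 of 5 passed, against 57.7%. Under 7, 8 of 13 passed (61.5%), 4 in each direction, against 39.5%. Whether the scanner or the normalization compresses differences at the bright end was not tested. The 11 probes that failed the detection filter were detected on no array, with raw signals between 84.7 and 106.5, and they left Rpl6, Rpl17, Rps20 and Rps23 without a tested probe. Of those that passed, 74 were detected on all 8 arrays, and the others were probes of Rpl23, Rpl14 and Rpsa, detected on 3, 5 and 7 arrays.

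**Figure D2:**
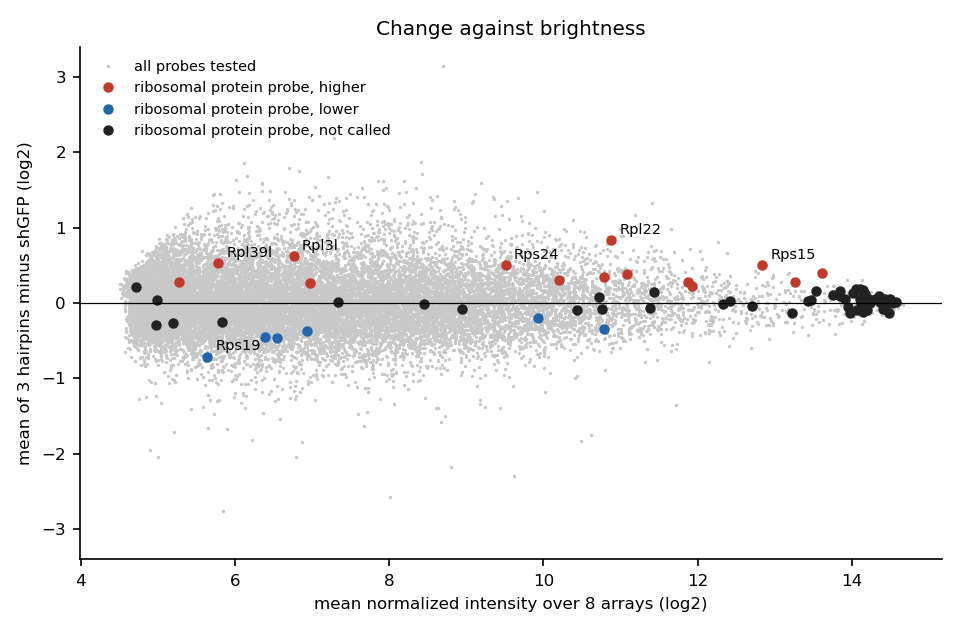
Change over the mean of the 3 hairpins against shGFP (y axis, log2) against mean normalized intensity over 8 arrays (x axis, log2), with all 20754 probes in grey and the 77 cytosolic ribosomal protein probes in colour. The members crowd at the right, where 2 of 43 were called, and the called ones lie mostly to the left of 13.

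The DNA around the start sites of 7 genes with a probe that rose, chosen after their values were seen, is shown because ribosomal protein genes are known for a run of C and T at the start of their mRNAs. Each line gives 50 bases before and 30 bases from the RefSeq start, 5′ to 3′ on the gene's strand (GRCm38.p6), and capitals mark uninterrupted runs of at least 8 C or T. The windows are those of Rpl22 (chr4:152325676-152325755, plus strand), Rps15 (chr10:80292381-80292460, plus strand), Rpl31 (chr1:39367801-39367880, plus strand), Rps24 (chr14:24490703-24490782, plus strand), Rps9 (chr7:3703991-3704070, plus strand), Rpl39l (chr16:10170178-10170257, plus strand) and Rpl3l (chr17:24727776-24727855, plus strand).
Rpl22: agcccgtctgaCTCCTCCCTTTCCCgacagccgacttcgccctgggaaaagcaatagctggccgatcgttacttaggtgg
Rps15: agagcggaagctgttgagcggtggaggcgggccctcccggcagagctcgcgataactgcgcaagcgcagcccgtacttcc
Rpl31: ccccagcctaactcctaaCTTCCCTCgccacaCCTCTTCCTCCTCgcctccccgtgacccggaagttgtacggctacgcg
Rps24: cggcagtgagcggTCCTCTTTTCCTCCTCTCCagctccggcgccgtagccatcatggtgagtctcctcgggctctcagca
Rps9: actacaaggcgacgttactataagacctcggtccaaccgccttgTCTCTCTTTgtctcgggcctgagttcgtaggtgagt
Rpl39l: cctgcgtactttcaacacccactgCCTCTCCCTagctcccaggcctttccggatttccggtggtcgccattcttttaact
Rpl3l: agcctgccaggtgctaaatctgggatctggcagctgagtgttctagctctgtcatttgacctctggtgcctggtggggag

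In the Rps9 window the run begins 6 bases before the start and crosses it, in Rpl22 it begins 39 bases before, and the Rps15 and Rpl3l windows hold no run of that length. Rpl22, Rps24 and Rpl3l have 2 listed starts each, of which the start with the longest stretch of C or T in its window is shown. The Rpl22 start not shown holds no run of that length, and that of Rpl3l holds none. At the Rps24 start not shown a run of 9 begins 3 bases before the start and crosses it, while the run shown for Rps24 begins 37 bases before. Of the 59 member genes, 48 matched the RefSeq promoter table by gene ID. A run of at least 8 C or T anywhere in the window was found for 1 or more listed starts of 31 of these 48 (64.6%). The share was 33.6% of all 27025 genes in the table. Runs that lie wholly before the start, outside the mRNA, are counted too. Member genes with a called probe held it in 9 of 13 cases and tested genes with none in 22 of 33.

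CCGGAAG, the core bound by the ETS-family factor GABP, was searched on both strands from 250 bases before to 50 bases from each start. It was present for 22 of the 48 member genes (45.8%) and for 9.93% of all genes. Among member genes with a called probe it was present in 2 of 13, and among those with none in 19 of 33, a difference that was noticed in these data and was not tested. AAGATGG, the core of sites for YY1, was present for 7 of 48 (14.6%) against 7.28% of all genes, and can overlap the first motif through the shared letters AAG.

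Rpl22, a large subunit protein that mice need for T-cell development but not for life, had the largest rise of all member probes over the mean of the hairpins, and the second largest with shDnmt3L3, after Rpl3l (0.99). Its single probe read 10.31 and 10.20 on the shGFP arrays, 11.26 and 11.22 under shDnmt3L1, 10.80 and 10.80 under shDnmt3L2 and 11.25 and 11.19 under shDnmt3L3. Every hairpin array was above both shGFP arrays, and the shDnmt3L2 arrays lay between the control and the other hairpins. The rise was 0.83 ± 0.07 over the mean of the hairpins (SE; 6 hairpin and 2 shGFP arrays; limma, adjusted p = 3.79e-05), or 1.78-fold. By hairpin it was 0.98, 0.54 and 0.97, and the level with shDnmt3L2 differed from that with shDnmt3L1 by -0.44 (adjusted p = 0.024), while shDnmt3L3 was 0.42 above shDnmt3L2 (adjusted p = 0.0045). Rpl22l1, its paralog, which Rpl22 is known to hold down in mouse, did not pass, with a log2 difference of 0.05.

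Rps15, a small subunit protein needed for late maturation of that subunit, had the most even rise. Its probe read 12.44 and 12.48 with shGFP and between 12.93 and 13.01 on the 6 hairpin arrays. The groups did not overlap, and the changes with the 3 hairpins were 0.50, 0.49 and 0.51. Over their mean the rise was 0.50 ± 0.06 (limma, adjusted p = 3.81e-04), and the hairpins did not pass a test of difference from each other (F test, adjusted p = 0.97).

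Rpl31, a large subunit protein near the exit of the peptide tunnel, was read by 3 probes that match the same transcript record. The first of the called probes read 10.80 and 10.80 with shGFP and 11.08 to 11.29 on the hairpin arrays, and rose by 0.38 ± 0.07 (adjusted p = 0.0021). The other read 10.54 and 10.50 on the shGFP arrays, 10.91 and 10.88 under shDnmt3L1, 11.04 and 11.03 under shDnmt3L2 and 10.62 and 10.68 under shDnmt3L3. Its hairpin arrays were again all above shGFP, and its rise of 0.34 ± 0.06 (adjusted p = 0.0025) differed among hairpins (F test, adjusted p = 0.013), which did not pass without the first shDnmt3L3 array (adjusted p = 0.073). The third Rpl31 probe, with group means of 14.07 to 14.19, did not pass, at 0.05.

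Rpl23, a large subunit protein at the interface of the subunits and a known MDM2 binder, had 1 of 4 probes that rose with 2 of the 3 hairpins. The probe that passed read 9.97 on both shGFP arrays, 10.50 on both shDnmt3L1 arrays, 10.42 and 10.35 with shDnmt3L2, and 9.95 and 9.93 with shDnmt3L3. Thus the shDnmt3L1 and shDnmt3L2 arrays were all above shGFP, and the shDnmt3L3 arrays were just below it. The change was 0.53 with shDnmt3L1 (adjusted p = 9.1e-04), 0.42 with shDnmt3L2 (adjusted p = 0.0043) and -0.03 with shDnmt3L3 (adjusted p = 0.79), and the shDnmt3L3 level was lower than that of each other hairpin (adjusted p = 0.0011 and 0.0025). Its pair of probes at group means of 14.06 to 14.23 did not pass over the mean of the hairpins, at 0.12 and 0.13. With shDnmt3L3 these bright probes were at 0.13 and 0.14, and neither differed among hairpins (F test, adjusted p = 0.99 and 0.72). A dim Rpl23 probe was not detected with shGFP and was at least 1.01-fold higher with shDnmt3L1. Its fitted change did not pass with that hairpin (limma, adjusted p = 0.055) or over the mean of the hairpins.

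The other large subunit genes with a rise were Rpl29, Rpl28, Rpl13a and Rpl4. Rpl29 encodes a small basic protein that also binds heparin, and its called probe read 11.65 and 11.68 with shGFP and 11.83 to 12.05 with the hairpins, a rise of 0.28 ± 0.07 (adjusted p = 0.0098). Rpl13a, which in human cells can leave the ribosome to repress selected mRNAs, read 11.80 and 11.72 with shGFP and 11.82 to 12.09 with the hairpins, a rise of 0.23 ± 0.07 (adjusted p = 0.028). In both cases the groups were separate, though the lowest hairpin array of Rpl13a was only just above shGFP. The Rpl13a call was lost without either shGFP array, the first shDnmt3L1 array or the first shDnmt3L2 array (0.19 to 0.27). With arrays scaled to a common median in place of quantile normalization, the values were 0.14 for Rpl29 and 0.07 for Rpl13a, and neither passed.

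Rpl28 read 6.70 and 6.84 with shGFP and 6.96 to 7.13 with the hairpins on its dimmer probe, a rise of 0.27 ± 0.08 (adjusted p = 0.020). Its brighter probe, at 0.18, did not pass. The dimmer probe of Rpl4, a gene whose brighter probe was at 0.15 and did not pass, read 5.0 and 5.11 with shGFP, 5.52 and 5.62 with shDnmt3L1, and 5.05 to 5.37 with the other hairpins. Its groups overlapped at a shDnmt3L2 array, and the rise of 0.28 ± 0.09 (adjusted p = 0.028) was lost without either shGFP array or the second array of any hairpin (0.22 to 0.34). The Rpl4 call was also lost without background correction (0.08), with the intensity trend (0.28) and in the authors' processed values (0.47). Without the first shGFP array, the rises of Rpl28 (0.20) and Rpl29 (0.27) did not pass either.

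Rpl21, a large subunit protein whose human form is mutated in an inherited hair loss, was the only member gene with several tested probes that all fell. Its probes read 6.68 and 6.76, 6.92 and 6.87, and 7.30 and 7.12 on the shGFP arrays. On the hairpin arrays the same probes read 6.16 to 6.50, 6.23 to 6.65 and 6.63 to 6.98. For each probe all 6 hairpin arrays lay below both shGFP arrays in these normalized values. The raw signals, before background correction and normalization, overlapped. For the first probe they were 164.8 and 174.6 with shGFP and 173.9 on the second shDnmt3L3 array. The falls over the mean of the hairpins were -0.44 ± 0.07 (adjusted p = 0.0012), -0.46 ± 0.09 (adjusted p = 0.0027) and -0.37 ± 0.08 (adjusted p = 0.0064). The first of these passed with each of the 3 hairpins and so did the second, while the third did not pass with shDnmt3L2 (-0.26, adjusted p = 0.079) or, over the mean, without the first shGFP array (-0.28, adjusted p = 0.076) or with median scaling (-0.23, adjusted p = 0.058). All 3 match 1 transcript record, so they are not independent of each other.

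Rps24, a small subunit protein mutated in human Diamond-Blackfan anaemia, is spliced to several forms, and its 3 tested probes are annotated to 3 different transcript records. The probe that rose read 9.06 and 9.20 on the shGFP arrays, 9.57 and 9.57 under shDnmt3L1, 9.44 and 9.59 under shDnmt3L2 and 9.88 and 9.76 under shDnmt3L3. All of its hairpin arrays were above shGFP, and the rise was 0.50 ± 0.08 (adjusted p = 9.8e-04), passing with each hairpin. A second probe read 10.07 and 10.10 with shGFP and 9.79 to 10.03 with the hairpins, below shGFP throughout, and fell by 0.20 (adjusted p = 0.043). That fall was lost without either shGFP array, either shDnmt3L2 array or the second array of shDnmt3L1 or shDnmt3L3 (-0.22 to -0.18). The third, with group means of 14.27 to 14.35, was at 0.05 and did not pass. Over the mean of the hairpins, Rps24 was the only member gene with probes called in opposite directions, and Rpl29 was such a gene with shDnmt3L3.

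Among the small subunit proteins that line the path of the mRNA, Rps3 and Rps9 each had a called probe and an uncalled one. The called Rps3 probe read 13.22 and 13.39 with shGFP and 13.47 to 13.87 with the hairpins, a rise of 0.40 ± 0.11 (adjusted p = 0.016). That of Rps9 read 12.97 and 13.12 with shGFP and 13.17 to 13.45 with the hairpins, a rise of 0.28 ± 0.08 (adjusted p = 0.023). In both cases the groups were separate, with the lowest hairpin array close to the higher shGFP array. Neither rise passed without the first shGFP array (0.32 for Rps3 and 0.21 for Rps9), and in the authors' processed values the Rps3 rise of 0.40 did not pass (adjusted p = 0.054). With median scaling Rps9 was at 0.23 and did not pass. The brighter probe of each gene was at 0.05 and did not pass.

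Rps19, the small subunit protein most often mutated in Diamond-Blackfan anaemia, had a dim probe that fell and a bright probe that did not pass. The dim probe read 6.19 and 6.17 on the shGFP arrays, 5.13 and 5.56 under shDnmt3L1, 5.61 and 5.57 under shDnmt3L2 and 5.78 and 5.14 under shDnmt3L3. All hairpin arrays were lower than shGFP, with the duplicates of shDnmt3L3 0.64 apart. The fall was -0.71 ± 0.16 (adjusted p = 0.0068), and in the authors' processed values it was -1.03 and did not pass (adjusted p = 0.063). The bright probe, with group means of 14.36 to 14.44, was at 0.01.

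**Figure D3:**
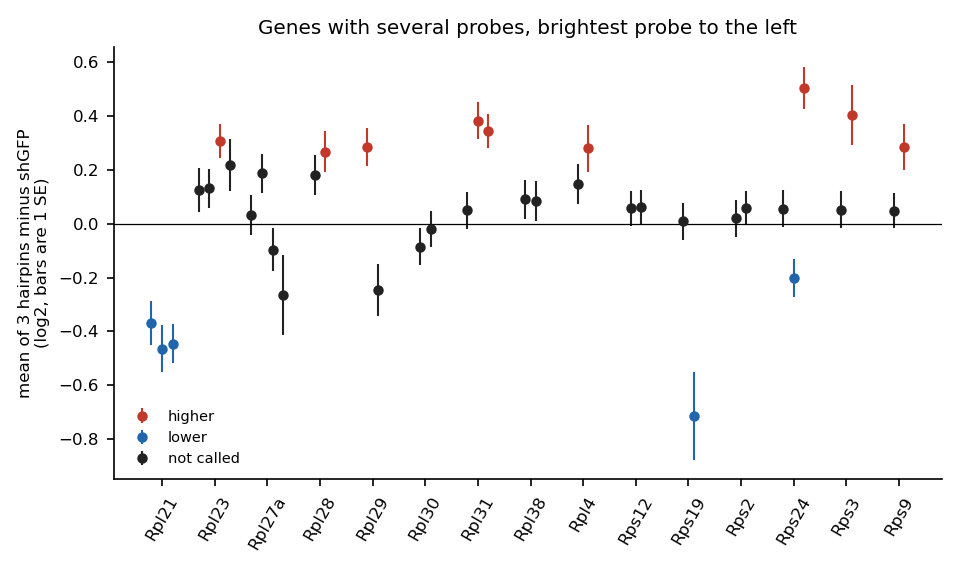
Change over the mean of the 3 hairpins against shGFP (y axis, log2, bars 1 SE from limma) for the 15 cytosolic ribosomal protein genes with several tested probes (x axis), probes from brightest on the left to dimmest on the right. In Rps24 a probe is higher and another lower, in Rps19 only the dim probe is lower, and in Rpl21 all 3 are lower.

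The probes of 1 gene did not always share a call. Of 15 such genes, 2 had their brightest probe called (Rpl21 and Rpl29) and 9 had a dimmer probe called. When each gene was represented by its brightest probe, 9 of 55 genes passed, 7 higher and 2 lower. Over all genes of the array treated in that way 5707 passed, 52.6% of them higher, and their share of the genes tested is not given here. Mouse ribosomal protein genes have many processed pseudogenes, and whether a probe also matches one of them was not tested, since probe sequences were not used here.

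The stalk of the large subunit, which recruits elongation factors, is formed by Rplp0, Rplp1 and Rplp2, and none of their tested probes passed. Rplp1 read 14.56 and 14.50 with shGFP and 14.48 to 14.56 with the hairpins, Rplp2 read 14.06 and 14.21 against 14.01 to 14.11, and Rplp0 read 9.07 and 8.94 against 8.79 to 9.21. The groups overlapped for all 3 genes. Their log2 differences over the mean of the hairpins were -0.01 (95% interval -0.15 to 0.14) for Rplp1, -0.09 (-0.25 to 0.07) for Rplp2 and -0.07 (-0.27 to 0.12) for Rplp0. Rpsa, a small subunit protein also known as the laminin receptor, was read by a dim probe detected on 7 arrays that did not pass either, at 0.04 (-0.31 to 0.39).

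Of the relatives of ribosomal proteins, Rpl3l takes the place of Rpl3 in skeletal muscle and heart, and Rpl39l that of Rpl39 in testis. The Rpl3l probe read 6.35 and 6.23 on the shGFP arrays, 6.88 and 6.98 under shDnmt3L1, 6.57 and 6.50 under shDnmt3L2 and 7.26 and 7.30 under shDnmt3L3. Its arrays formed separate levels by group, lowest with shGFP and highest with shDnmt3L3. The rise was 0.63 ± 0.07 over the mean (adjusted p = 1.83e-04), and the hairpins differed from each other in every pair (adjusted p = 0.039, 0.016 and 3.6e-04). Rpl39l read 5.61 and 5.15 on the shGFP arrays, 5.93 and 5.74 under shDnmt3L1, 5.51 and 5.74 under shDnmt3L2 and 6.35 and 6.20 under shDnmt3L3. A shDnmt3L2 array lay below the higher shGFP array, and the rise of 0.53 ± 0.13 (adjusted p = 0.0083) was lost without the second shGFP array (0.30, adjusted p = 0.097) and in the authors' processed values (0.80, adjusted p = 0.051). The bright probes of Rpl3 and Rpl39 themselves did not pass, at -0.10 and 0.00.

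Rps4l, which RefSeq lists as a transcribed pseudogene and which the rule keeps because its symbol does not end in -ps, fell. Its probe read 11.05 and 11.02 on the shGFP arrays, 10.74 and 10.78 under shDnmt3L1, 10.87 and 10.72 under shDnmt3L2 and 10.51 and 10.54 under shDnmt3L3. All hairpin arrays were below shGFP, and the change was -0.34 ± 0.07 (adjusted p = 0.0038). Rps4x, the X-linked protein gene, did not pass, at 0.01, and neither did Rps27l, a relative of Rps27 that p53 induces, at 0.09 (-0.08 to 0.26). Rps3a1 is a small subunit gene that the rule misses because a number follows the letter, and it is given here for that reason only, with a log2 difference of -0.02 that did not pass.

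By hairpin, 18 member probes passed with shDnmt3L1 (13 higher and 5 lower), 11 with shDnmt3L2 (7 higher and 4 lower) and 20 with shDnmt3L3 (11 higher and 9 lower). The shares were 23.4%, 14.3% and 26.0%, against 41.5%, 32.8% and 45.5% of all probes in the same order. Of all probes, 20.7%, 16.7% and 22.6% were higher and 20.8%, 16% and 22.9% lower, again in that order. Median changes of the members were 0.05, 0.02 and 0.05 on the log2 scale. These comparisons share the shGFP arrays and are therefore not independent. The counts across hairpins that follow were made for the member probes only, so no share over all probes stands beside them. In all, 25 of the 77 probes passed with at least 1 hairpin, 4 rose with all 3 (Rpl22, Rps15, the rising Rps24 probe and 1 Rpl31 probe), and 3 fell with all 3 (the dim Rps19 probe and 2 Rpl21 probes). Of these, the shDnmt3L2 calls of the Rpl31 probe, of 1 Rpl21 probe and of Rps19 were each lost without 1 or more single arrays of shGFP or shDnmt3L2 (adjusted p = 0.0501 to 0.151), as were the calls of Rps19 with shDnmt3L1 and shDnmt3L3 (adjusted p = 0.0551 to 0.101).

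Tested directly, the hairpin groups differed from each other for 10 of the 77 member probes (F test, 13%), against 37.4% of all probes. In pairs, shDnmt3L2 against shDnmt3L1 gave 2 member probes, both lower (Rpl22 and Rpl3l), against 5.12% of all probes (2.3% higher and 2.82% lower). With shDnmt3L3 against shDnmt3L1, 2 were higher and 4 lower, against 29% of all probes (14.2% higher and 14.8% lower). With shDnmt3L3 against shDnmt3L2, 5 were higher and 6 lower, against 35.4% of all probes (17.6% higher and 17.8% lower).

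Rpl30, a large subunit protein whose yeast form represses the splicing of its own transcript, had the smallest F-test p-values among hairpins of all member genes (adjusted p = 5.05e-04 and 6.64e-04). Its brighter probe read 10.84 and 10.81 on the shGFP arrays, 10.93 and 10.95 under shDnmt3L1, 10.97 and 10.98 under shDnmt3L2 and 10.37 and 10.22 under shDnmt3L3. The other probe read 8.52 and 8.41, 8.63 and 8.68, 8.70 and 8.67, and 8.02 and 7.98 in the same order. On both probes the shDnmt3L3 arrays were below all other arrays, and the remaining hairpin arrays were all above shGFP. Against shGFP, Rpl30 fell with shDnmt3L3 by 0.53 and 0.47 on the 2 probes (adjusted p = 0.0011 and 0.0017). The differences of 0.12 to 0.22 with the other hairpins did not pass. The difference itself passed for each probe between shDnmt3L3 and shDnmt3L1 (-0.64 and -0.66, adjusted p = 7.8e-04 and 5.8e-04) and between shDnmt3L3 and shDnmt3L2 (-0.68 and -0.69, adjusted p = 4.8e-04 and 3.9e-04). Over the mean of the 3 hairpins neither Rpl30 probe passed.

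Rpl38, a large subunit protein that mouse embryos need for translation of Hox mRNAs, had a probe that rose with shDnmt3L3. It read 10.66 and 10.65 on the shGFP arrays, 10.60 and 10.58 under shDnmt3L1, 10.59 and 10.75 under shDnmt3L2 and 11.02 and 10.91 under shDnmt3L3. The shDnmt3L3 arrays were above all others, a rise of 0.31 ± 0.09 (adjusted p = 0.021). The test among hairpins (F test, adjusted p = 0.022) was lost without any of the shDnmt3L1 or shDnmt3L3 arrays (adjusted p = 0.052 to 0.14), and the brighter Rpl38 probe was at 0.07 with shDnmt3L3.

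The dimmer Rpl29 probe read 6.09 and 5.93 on the shGFP arrays, 5.84 and 5.72 under shDnmt3L1, 5.94 and 6.03 under shDnmt3L2 and 5.69 and 5.38 under shDnmt3L3. Only the shDnmt3L3 arrays were below all others, and with that hairpin the probe fell by 0.48 (adjusted p = 0.0099), while the brighter Rpl29 probe rose by 0.24 (adjusted p = 0.046). Rpl14, a further large subunit protein, was detected on no shDnmt3L3 array and was at least 1.29-fold lower there than with shGFP. The test was of the fitted log2 change, -0.52, and not of that bound (limma, adjusted p = 0.045). Its call was lost without any single one of the 4 arrays compared (-0.64 to -0.39), with median scaling (-0.45) and in the authors' processed values (-0.35).

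**Figure D4:**
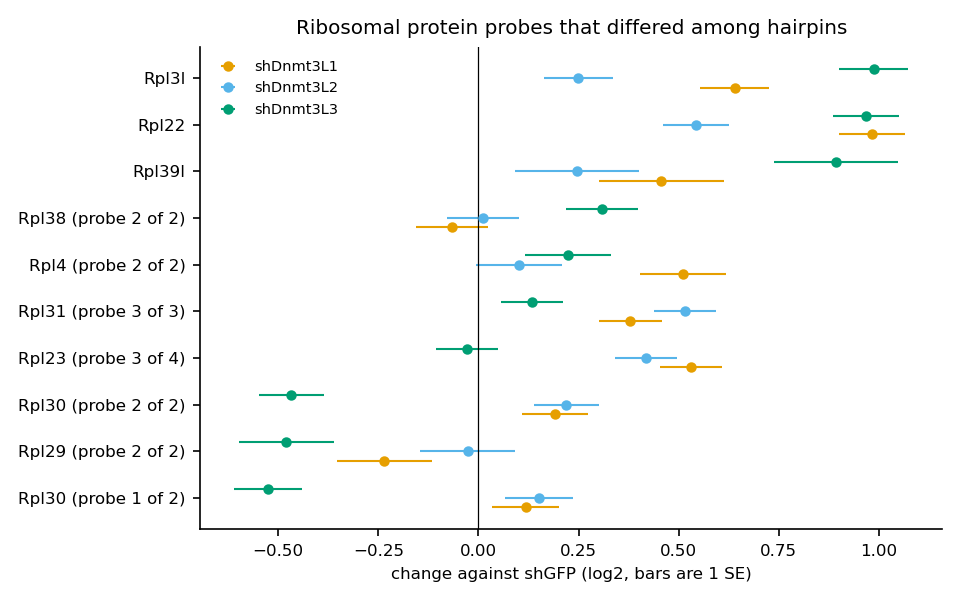
Change of each hairpin against shGFP (x axis, log2, bars 1 SE from limma) for the 10 cytosolic ribosomal protein probes that differed among hairpins in the F test (y axis). The Rpl30 probes lie left of 0 with shDnmt3L3 and right of it with the other hairpins, and Rpl22 lies lowest with shDnmt3L2.

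Other genes that build the ribosome, work with it or control its supply were measured in the same fit. The counts that follow are over the mean of the 3 hairpins, where 46% of all probes passed and their median was -0.010. Mitochondrial ribosomal proteins, which form the separate ribosome of that organelle, gave 120 tested probes, of which 6 rose and 81 fell, or 72.5%, with a median of -0.35. The largest falls were Mrpl35 (-1.03) and Mrpl49 (-0.96), and the largest rises were Mrpl23 (0.42) and Mrps6 (0.34). Among 117 probes of ribosome biogenesis and RNA polymerase I genes, 3 rose and 82 fell, or 72.6%, with a median of -0.33. Ncl, which encodes the nucleolar protein nucleolin, fell by 1.34 and Imp4, of the complex that processes the small subunit RNA, by 1.39, while Rrp1 and Polr1d rose by 0.35 and 0.34.

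Translation factors gave 112 probes, of which 21 rose and 38 fell, with a median of -0.08. Eef2, the factor that moves the ribosome along the mRNA, rose by 0.74 and 0.71 on a pair of probes, and Eif4e2, a cap-binding protein, fell by 0.88. Eef1akmt1, a methyltransferase taken in by the naming rule of that list, fell by 1.34. Growth control genes gave 50 probes, of which 19 rose and 5 fell, with a median of 0.12, and they include Mycl (1.05) and Ddit4l (1.02) at the upper end and Sp1 (-0.47) and Max (-0.38) at the lower. MDM2 and p53 genes gave 30 probes, of which 15 rose and 6 fell, with a median of 0.28. Ccng1 (0.79) and Cdkn1a (0.71), both p53 targets, were the largest rises and Znhit3 (-0.97 and -0.83) the largest falls.

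A short list of further ribosomal proteins and paralogs gave 9 probes, of which 2 rose and 4 fell, 1 of the falls being Rps4l, already counted among the 77 probes above. Both Rsl24d1 probes rose (0.33 and 0.32), and 1 of the 2 Rpl7l1 probes fell by 1.11 while the other did not pass. Both genes encode proteins that act in large subunit assembly. Rpl36al did not pass, at -0.14.

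**Figure D5:**
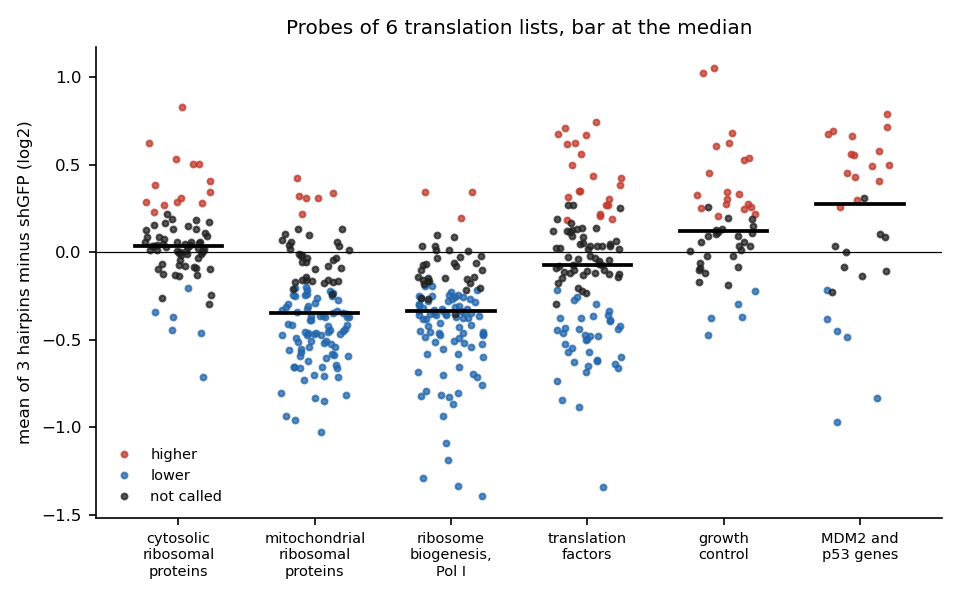
Change over the mean of the 3 hairpins against shGFP (y axis, log2) of every tested probe in 6 gene lists (x axis), with the median of each list as a bar. The median of the cytosolic ribosomal proteins is 0.035, that of the mitochondrial ribosomal proteins -0.35 and that of the ribosome biogenesis genes -0.33.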

How the data were processed

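The authors' deposited non-normalized table holds 1 linear intensity per probe and array, without background subtraction, and GenomeStudio 2011.1 is the software that the submitters' processing notes name. The deposited column beside each intensity has no name in the file headers and was read as a detection p-value from its position and its monotonic relation to that intensity. The authors' processed intensity table, linear with a common distribution on all arrays, was used as an alternative only. Probe genes came from the platform annotation, updated by gene ID with the RefSeq table of GRCm38.p6.

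Intensities were background-corrected and quantile-normalized with neqc in limma 3.58.1 (R 4.3.3), with an offset of 16 before log2, so log2 changes of dim probes depend on that offset. Probes whose detection p was under 0.05 on 2 or more arrays were fitted with lmFit and eBayes as 4 group means over 8 arrays (4 residual and 4.81 prior degrees of freedom). Tests were two-sided, with Benjamini-Hochberg adjustment across all 20754 probes of a contrast. A probe was called, and is said to have passed, at an adjusted p under 0.05. The contrasts were each hairpin against shGFP, the mean of the 3 hairpins against shGFP, the hairpins in pairs and an F test among them. Duplicates are not stated to be separate cultures, so each p-value reflects the spread of duplicates alone, and that spread may be technical. With 2 arrays a group, the number of arrays limits the precision.

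Where no array of a group detected a probe, a bound is given, "at least N-fold", set from the higher of its own value and the lowest detected value on each array. Start windows came from the RefSeq promoter table of GRCm38.p6. The fitting was tested on simulated data. The members, the other gene lists and the rule for named genes were chosen with earlier results of these data known. That rule names Dnmt3l, every member probe called over the mean of the hairpins, the 8 largest called changes per hairpin, the 8 smallest F-test p-values, stalk proteins, Rpsa, paralogs, genes with probes called in opposite directions, and from each other list the 2 largest rises and falls. Other genes were named after their values were seen, as unchanged partners of those or as members of the short list of further ribosomal proteins.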

Additional observations from a re-analysis of the deposited data

Results flagged for a closer look

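The change against shGFP differed among the 3 hairpins, by the F test of the fit over all 20754 probes, for the first Dnmt3l probe (adjusted p = 2.79e-05) and for 10 cytosolic ribosomal protein probes. These were both Rpl30 probes (5.05e-04 and 6.64e-04), Rpl3l (8.65e-04), 1 probe of Rpl23 (0.00158), Rpl22 (0.00492) and 1 probe of Rpl31 (0.0125). The others were the dimmer probe of Rpl38 (0.0218), Rpl39l (0.0252), and the dimmer probes of Rpl4 (0.0360) and Rpl29 (0.0397). The share of member probes was 13%, against 37.4% of all probes. For Rpl30 the shDnmt3L3 arrays were below shGFP while the other hairpin arrays were above it. On that Rpl23 probe the shDnmt3L3 arrays were at the shGFP level while the others were above it, a pattern that its bright probes did not show. For Rpl3l and Rpl39l the rise was largest with shDnmt3L3. The Rpl39l difference between shDnmt3L3 and shDnmt3L1 did not pass (limma, adjusted p = 0.065). For Rpl22 and Rpl4 the value with shDnmt3L2 was the smallest. The Rpl4 difference of shDnmt3L2 from shDnmt3L1 or shDnmt3L3 did not pass (limma, adjusted p = 0.065 and 0.42). Groups of 2 arrays are too small to look for single arrays that stand apart.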

How the results depend on the processing

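The first Dnmt3l probe kept its fall under all alternatives, and no called result turned its direction. Counts of called member probes moved as follows. With median scaling, shDnmt3L3 gave 13 calls, the member median rose to 0.147 with shDnmt3L1 and 0.103 with shDnmt3L2, and the split of all calls over the mean of the hairpins went from 49.5% to 63.5% higher. All probes moved with the members under that scaling. Over the mean of the hairpins the median was 0.063 for all probes and 0.12 for the members, against -0.010 and 0.035 in the main fit. Without background correction the calls were 29, 26 and 32 by hairpin, 31 over their mean and 17 in the F test. An offset of 50 gave 19 with shDnmt3L2 and 16 in the F test, an intensity trend 20 and 16, and detection on all 8 arrays 19 with shDnmt3L2. With 1 probe per gene the calls were 9, 5 and 11 by hairpin, 9 over their mean and 5 in the F test. Of all probes, 9926 passed over the mean without background correction, against 9547 in the main fit. An offset of 50 gave 25 member calls over the mean and 10134 over all probes. The intensity trend gave 26 and 10157, and median scaling 21 and 9132. With 1 probe per gene, where fewer probes were tested, 5707 of all probes passed over the mean. The member counts by hairpin and in the F test have no share of all probes beside them here. They therefore cannot separate a shift of the members from one of the whole array. With the group as a random block (correlation 0.624) the hairpin arrays against shGFP gave 1 call, Rpl22.

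Leaving out 1 array gave 12 to 17 calls with shDnmt3L1, 7 to 10 with shDnmt3L2, 11 to 20 with shDnmt3L3, 14 to 21 over the mean and 6 to 11 in the F test. The 7 came without the second shGFP array or either shDnmt3L2 array, and shDnmt3L3 gave 13 and 12 without the shGFP arrays and 11 and 13 without its own. The 6 came without the first shDnmt3L3 array. Member medians stayed between 0.015 and 0.065, and Dnmt3l between -2.73 and -1.09 by hairpin and between -1.80 and -1.70 over their mean. No share of all probes stands beside the member counts without 1 array, so they too cannot separate the members from the whole array.

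Replicate numbers did not pair the arrays (correlations of duplicate differences -0.006 to 0.041). With the replicate block, 19 member probes were called over the mean, all among the 20, and the second Rps24 probe was the one lost (adjusted p = 0.0563). Counting members without the 4 paralogs was chosen after seeing the data, as were the brightness ranges, and gave 17 calls over the mean.

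In the other lists, 1 probe per gene gave 3 calls for the further ribosomal proteins, 52 each for mitochondrial ribosomal proteins and biogenesis, 32 for translation factors, 14 for growth control and 11 for MDM2 and p53 genes. The random block gave 1, 9, 8, 2, 1 and 4 in that order. Growth control gave 14 without either shGFP array. The causes were not tested, except that 1 probe per gene tests fewer probes. Dim probes near background limit Rpl14, Rpl4, Rpsa, Rpl39l and the dimmer probes of Rpl23, Rpl29 and Rps19.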

Other observations

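Both probes of Rsl1d1, a nucleolar protein with a domain like that of a ribosomal protein, fell by 0.26 and 0.28 on the log2 scale over the mean of the hairpins (limma, adjusted p = 0.017 and 0.010).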
